A study of Homo sapiens with 9 samples.

Results

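Vitamin A handling was examined in HEK293 cells, an embryonic human kidney line, through 9 genes: STRA6, CRABP1, CRABP2, DHRS3, ALDH1A2, CYP26B1, RARA, RARB and RARG. Members were all array probes whose RefSeq accession belongs to one of these genes, which gave 14 of the 42405 probes, for 9 of the 19483 genes named on the array. The genes were chosen on their measured differences from the control, so their values against the control are given below as a description without a test. Only the difference between the knock-downs, and the genes outside these 9, are tested. The list of other retinoid genes was also drawn up with earlier results of these data known. Its p-values against the control are therefore not those of an independent test.

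Stable cell populations of 3 groups were compared by one-color mRNA microarray, 3 arrays each, with no further treatment. All carried a retroviral pQCXIP-GFP vector and had been selected with puromycin. KD3 expressed shRNA 3 and KD4 expressed shRNA 4, both directed towards SmcHD1, a chromatin protein known for silencing on the inactive X chromosome, and CTL expressed the control shRNA NC5. The methods call the arrays biological triplicates, but whether they came from separate infections is not given in the sources used here, so that p-values measure only the spread between these samples. The inserts that separate the groups are shown 5′ to 3′ as the labels give them, with the hairpin loop in capitals.
KD3: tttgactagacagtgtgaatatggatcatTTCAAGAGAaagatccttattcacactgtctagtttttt
KD4: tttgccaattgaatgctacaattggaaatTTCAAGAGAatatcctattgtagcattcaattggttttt
CTL: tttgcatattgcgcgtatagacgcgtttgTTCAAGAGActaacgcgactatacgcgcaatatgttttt

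Retinol reaches cells from the blood bound to a carrier protein and is oxidized first to retinaldehyde and then to retinoic acid. Retinoic acid is held in the cytoplasm by small binding proteins, broken down by CYP26 hydroxylases, and acts through the nuclear receptors RARA, RARB and RARG, which pair with RXR partners on direct repeats of a short DNA half-site. RARB and CYP26A1 are textbook genes that retinoic acid induces through such elements, and STRA6 is named for its stimulation by retinoic acid in embryonal carcinoma cells.

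To show where such elements lie, RefSeq windows from 250 bases before to 50 bases after each annotated start (GRCh38.p14) were searched on both strands for the half-site AGGTCA and its variants AGTTCA or GGGTCA or GGTTCA, and for their direct repeats spaced by 1, 2 or 5 bases. All 9 genes matched, with 21 windows. One window, of RARB, held a direct repeat, spaced by 5 bases, from 53 to 37 bases before the start, and 31 of 34796 windows of all genes (0.0891%) held one. Among the other retinoid genes examined below, a window of CYP26A1 held one, on the opposite strand. Repeats spaced by 1 and by 2 bases, found in 0.126% and 0.0374% of all windows, were in no window of the 9 genes. At least 1 half-site was found in 10 of the 21 windows (47.6%), against 38.6% of all windows. The 250 bases before the start are printed for RARB and CYP26A1, with the repeat in capitals, because they hold the same kind of element and gave different readings on the arrays, and for STRA6, whose first window held 3 single half-sites (in capitals), because its signal differed most from CTL among the 9 genes. RARB lies at chr3:25428013-25428262 on the plus strand, CYP26A1 at chr10:93073643-93073892 on the plus strand and STRA6 at chr15:74212260-74212509 on the minus strand. A match is a run of letters and not a measured binding site, and which start gave the measured transcript was not tested.
RARB: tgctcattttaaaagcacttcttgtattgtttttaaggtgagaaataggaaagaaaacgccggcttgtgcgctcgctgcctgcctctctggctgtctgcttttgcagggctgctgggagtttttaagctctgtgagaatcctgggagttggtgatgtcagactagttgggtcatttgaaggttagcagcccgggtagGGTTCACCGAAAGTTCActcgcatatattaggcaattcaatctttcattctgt
CYP26A1: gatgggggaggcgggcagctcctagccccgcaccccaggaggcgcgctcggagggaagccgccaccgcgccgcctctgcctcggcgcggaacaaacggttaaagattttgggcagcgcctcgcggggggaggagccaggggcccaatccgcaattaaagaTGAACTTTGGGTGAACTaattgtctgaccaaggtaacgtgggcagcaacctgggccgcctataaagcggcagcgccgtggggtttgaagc
STRA6: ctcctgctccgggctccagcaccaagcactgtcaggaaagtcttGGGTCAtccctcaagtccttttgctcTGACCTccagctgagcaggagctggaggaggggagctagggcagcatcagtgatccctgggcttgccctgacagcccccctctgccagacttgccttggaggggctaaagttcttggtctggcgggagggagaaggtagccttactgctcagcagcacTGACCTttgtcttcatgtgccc

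**Figure D1:**
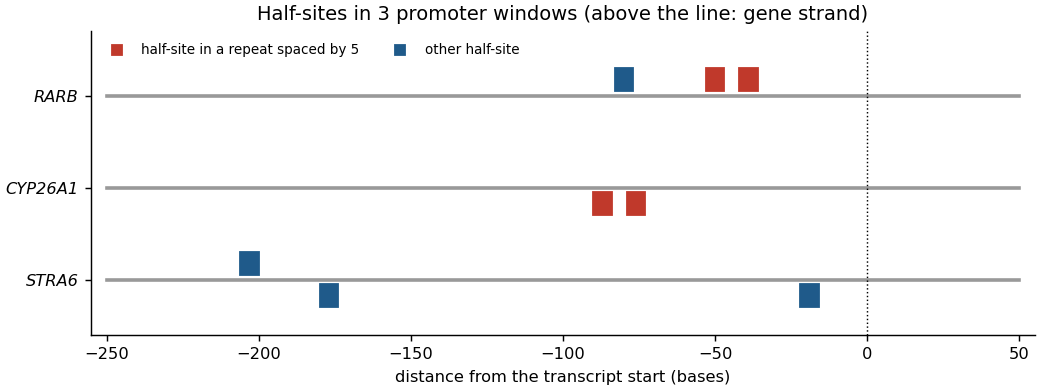
Half-sites in the RARB, CYP26A1 and STRA6 windows, by distance from the annotated start in bases, with the first transcribed base at 0. Boxes above a line lie on the strand of the gene and boxes below it on the opposite strand. Red boxes are the parts of a direct repeat spaced by 5 bases, in RARB and CYP26A1, and blue boxes are other half-sites, 3 of them in STRA6.

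A signal well above background on all 9 arrays was found for 13 of the 14 probes, and these were tested. They cover 8 of the 9 genes, and the probe of CYP26B1 was not tested. The median processed signal of an array ran from 119.6 to 181.4, 75.1% to 79.8% of probes read well above background, no spot was saturated, and arrays of a group had a Pearson correlation of at least 0.9946 across probes. The 9 arrays lay on 2 slides, each with arrays of all groups. Slide 1 held 2 KD3 arrays, 1 KD4 array and 1 CTL array, and slide 2 held 1 KD3, 2 KD4 and 2 CTL arrays. SMCHD1 itself, the targeted gene, had its 6 knock-down readings below its 3 CTL readings, with a log2 difference of -1.25 for the brightest SMCHD1 probe (exact permutation test, two-sided, p = 0.0119, which is the smallest value possible for 6 against 3 arrays). Of the markers of the HEK293 line, VIM, NEFL, NEFM, LHX1 and PAX2 were all well above background on the 9 arrays. Among markers of other cells, PECAM1 and KRT5 were above background on 0 arrays and ALB on 1, while HAND2, GATA3, COL1A1 and 2 of 4 PTPRC probes were measured on all 9. NEFM was lower in KD3 and KD4 (log2 fold changes of -1.21 and -1.24), as were HAND2 (-0.85 and -0.97) and 1 of 2 PAX2 probes (-2.41 and -2.65), and the part of these shifts in the results below was not tested. In RNA from whole cultures, fewer cells of one kind and less RNA per cell cannot be told apart.

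STRA6, the membrane receptor that takes up retinol from its plasma carrier, was far lower in both knock-downs, and RARB, a retinoic acid receptor, was about 2-fold higher in both. The other measured members differed less from CTL. A probe was called at a Benjamini-Hochberg adjusted p under 0.05 over the 32276 tested probes and a fold of at least 1.8. In KD3, both STRA6 probes were called lower and both RARB probes higher, where 3.32% of all tested probes were called. The same 4 probes were called in KD4, where 4.6% were. Called in both knock-downs were thus 2 probes higher and 2 lower, where 0.75% and 1.65% of all tested probes were, and these counts describe how the genes were chosen, by their difference from CTL, and test nothing. By adjusted p alone, 8 of the 13 probes passed for KD3, where 20% of all tested probes did, and 9 for KD4, where 28.3% did. The 13 probes had a median log2 fold change of 0.16 for KD3 and 0.25 for KD4, beside 0.01 and 0.04 over all tested probes. Both comparisons use the same CTL arrays.

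**Figure D2:**
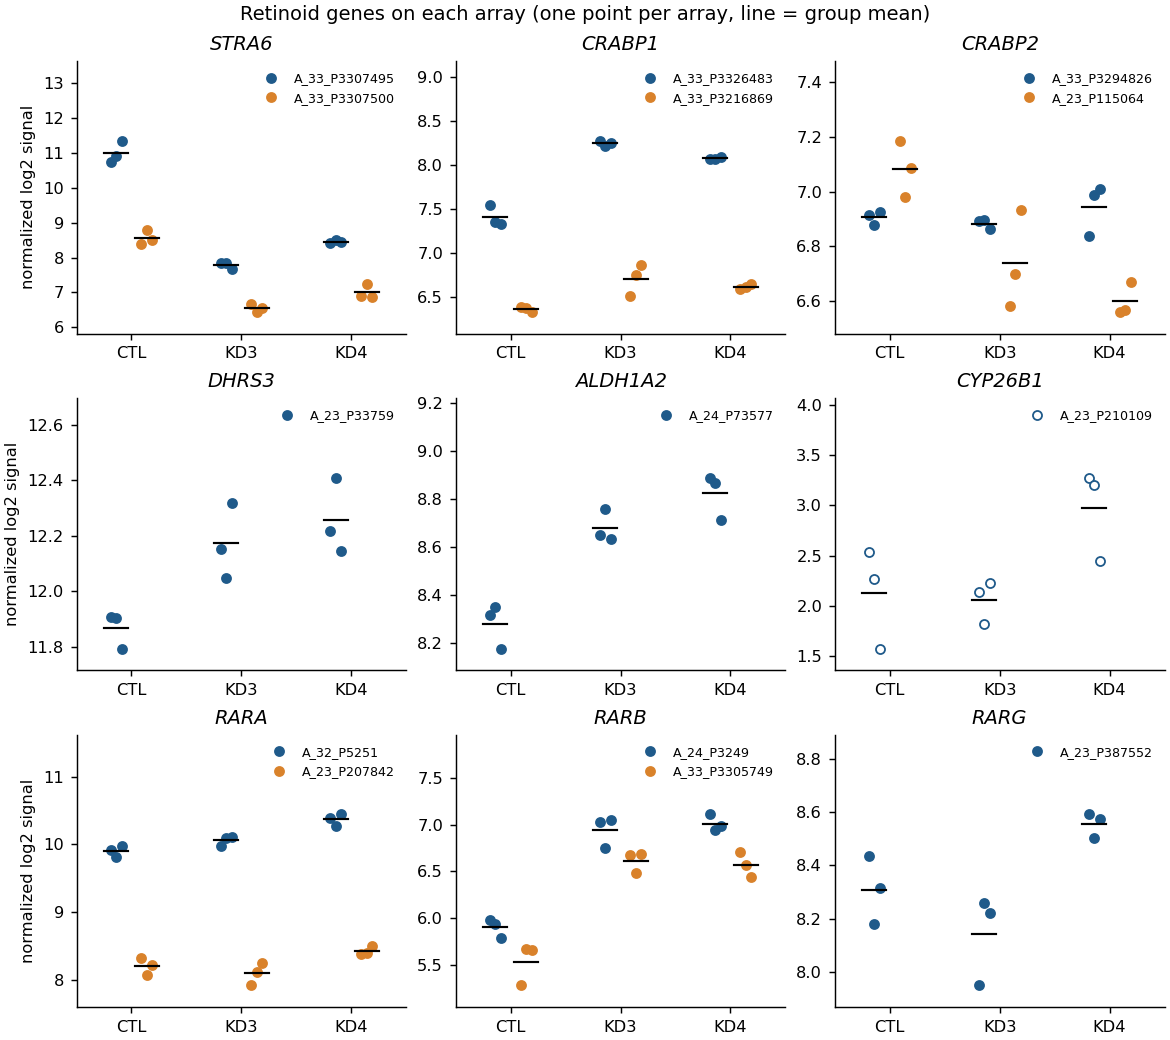
Normalized log2 signal of each retinoid probe on each array, by group, with 1 panel per gene and its own scale. Points are arrays, horizontal lines are group means, colors are probes, and open points mark the CYP26B1 probe that was not tested. STRA6 lies lower and RARB higher on all knock-down arrays than on all CTL arrays. RARG and RARA probe A_23_P207842 overlap CTL in KD3 but not in KD4, and CRABP2 probe A_33_P3294826 overlaps CTL in both.

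For STRA6 probe A_33_P3307495, on chromosome 15, the normalized log2 signal was 10.72, 10.90 and 11.34 on the CTL arrays, 7.83, 7.84 and 7.66 in KD3, and 8.42, 8.51 and 8.44 in KD4. The 3 groups did not overlap, with KD3 lowest and CTL highest. The mean log2 change from CTL was -3.21 for KD3 and -2.53 for KD4 (standard error 0.143 for each), which left 10.8% and 17.3% of the CTL signal. Ranked from the largest decrease, it stood at place 6 in KD3 and 33 in KD4 among the 32276 tested probes. The scanner's processed signal, before normalization, was 2105 to 2382 in CTL, 216 to 244 in KD3 and 272 to 362 in KD4.

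A second STRA6 probe, A_33_P3307500, designed on another transcript accession, read 8.39, 8.78 and 8.51 in CTL, 6.66, 6.45 and 6.54 in KD3, and 6.91, 7.25 and 6.86 in KD4. It had the same order of groups without overlap. Its log2 fold changes were -2.01 and -1.56 (standard error 0.133), which left 24.8% and 34.0% of the CTL signal. The methods' t-test with adjustment called this probe in both knock-downs but A_33_P3307495 in neither. Both probes stood less far below CTL in KD4, whose SMCHD1 signal was the lower of the knock-downs, than in KD3. Whether the STRA6 and SMCHD1 levels are linked was not tested. The direct difference of KD4 from KD3 was 0.68 on the log2 scale for A_33_P3307495 (limma, adjusted p = 0.0495) and 0.46 for A_33_P3307500 (adjusted p = 0.114). The first value sits at the threshold: with 1 array left out, its adjusted p ran from 0.0147 to 0.146 and was above 0.05 in 7 of 9 cases, all but CTL replicates 1 and 3, and over all 18 alternative settings with an adjusted p it passed in 6. The difference had the same sign in every one of them. Within the slides, the log2 fold change of A_33_P3307495 was -2.97 and -3.28 in KD3 and -2.30 and -2.64 in KD4.

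CRABP1 and CRABP2 carry retinoic acid in the cytoplasm, CRABP2 being known for delivering it to the receptors in the nucleus. CRABP1 probe A_33_P3326483 read 7.55, 7.36 and 7.33 in CTL, 8.27, 8.21 and 8.25 in KD3, and 8.07, 8.06 and 8.10 in KD4. All knock-down arrays lay above all CTL arrays, and KD3 lay above KD4. The signal was 178% of CTL in KD3 and 158% in KD4 (log2 fold changes of 0.83 and 0.66, standard error 0.0743), which is below the 1.8-fold threshold in both. With CTL replicate 1 left out, the value for KD3 was 0.90 and the probe was called. The second CRABP1 probe, A_33_P3216869, had log2 fold changes of 0.34 and 0.25 (standard error 0.0911), again with no overlap between knock-down and CTL arrays. KD4 differed from KD3 by -0.17 (limma, adjusted p = 0.261) and -0.09 (adjusted p = 0.636) for the first and second probe.

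The CRABP2 probes read differently. Probe A_23_P115064 read 7.18, 6.98 and 7.08 in CTL, 6.58, 6.70 and 6.93 in KD3, and 6.56, 6.57 and 6.67 in KD4, with log2 fold changes of -0.35 and -0.48 (standard error 0.101). All its knock-down arrays lay below CTL, though KD3 replicate 3 came close to the lowest CTL array. Probe A_33_P3294826, designed on another CRABP2 accession, lay between 6.84 and 7.01 on all 9 arrays and its groups overlapped, with log2 fold changes of -0.02 and 0.04 (standard error 0.0681).

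DHRS3 reduces retinaldehyde back to retinol, and ALDH1A2 oxidizes retinaldehyde to retinoic acid. DHRS3 probe A_23_P33759 read 11.91, 11.90 and 11.79 in CTL, 12.15, 12.05 and 12.32 in KD3, and 12.22, 12.41 and 12.15 in KD4. All knock-down arrays were above CTL, and KD3 and KD4 overlapped (log2 fold changes of 0.30 and 0.39, standard error 0.0979). ALDH1A2 probe A_24_P73577 read 8.32, 8.35 and 8.18 in CTL, 8.65, 8.76 and 8.63 in KD3, and 8.89, 8.87 and 8.71 in KD4. It too was above CTL on all knock-down arrays, at 132% of CTL in KD3 and 146% in KD4. CYP26B1, a hydroxylase that clears retinoic acid, was well above background on 1 of the 9 arrays, KD4 replicate 2, so no fold is given.

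The receptors differed from one another. RARB probe A_24_P3249, on chromosome 3, read 5.98, 5.94 and 5.79 in CTL, 7.03, 6.75 and 7.05 in KD3, and 7.11, 6.94 and 6.98 in KD4. Probe A_33_P3305749, of the same accession, read 5.28, 5.66 and 5.66 in CTL, 6.67, 6.49 and 6.69 in KD3, and 6.71, 6.57 and 6.43 in KD4. For both probes the CTL arrays lay below all knock-down arrays, while KD3 and KD4 overlapped. The first probe was 2.06-fold above CTL in KD3 and 2.16-fold above it in KD4 (log2 fold changes of 1.04 and 1.11, standard error 0.1), and the second had log2 fold changes of 1.08 and 1.04 (standard error 0.124). KD4 differed from KD3 by 0.07 (limma, adjusted p = 0.756) and -0.05 (adjusted p = 0.87).

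RARB was the dimmest measured member, with a processed signal of 54.3 to 76.5 in CTL for A_24_P3249 and 46.5 to 55.2 for A_33_P3305749. When the background was corrected by normexp with an offset of 50, a constant near the size of that signal, the log2 fold changes shrank to 0.57 and 0.63 for A_24_P3249 and to 0.60 and 0.58 for A_33_P3305749, and neither probe was called. The methods' t-test with adjustment called A_24_P3249 in KD4 but not in KD3, and A_33_P3305749 in neither. Both stayed above CTL on each slide. For A_33_P3305749 the log2 fold change within the slides was 1.40 and 0.83 in KD3 and 1.43 and 0.84 in KD4. The first value of each pair rests on a single CTL array, replicate 1, the lowest CTL reading at 5.28.

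RARA probe A_32_P5251 read 9.92, 9.82 and 9.97 in CTL, 9.98, 10.09 and 10.11 in KD3, and 10.39, 10.28 and 10.44 in KD4. The knock-down arrays lay above CTL, by 0.16 (KD3) and 0.47 (KD4) on the log2 scale (standard error 0.0773). The second RARA probe, A_23_P207842, overlapped between KD3 and CTL (-0.11) and was 0.22 higher in KD4. RARG probe A_23_P387552 read 8.43, 8.18 and 8.31 in CTL, 7.95, 8.26 and 8.22 in KD3, and 8.59, 8.50 and 8.57 in KD4, with log2 fold changes of -0.17 and 0.25. KD4 lay above KD3 for the RARA probes by 0.31 (limma, adjusted p = 0.0791) and 0.33 (adjusted p = 0.133), and for RARG by 0.41 (adjusted p = 0.0754). These 3 probes did not overlap between KD3 and KD4, but their adjusted p was not under 0.05 except under normexp. There all 3 passed by adjusted p, but none was called, because the difference stayed under 1.8-fold.

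**Figure D3:**
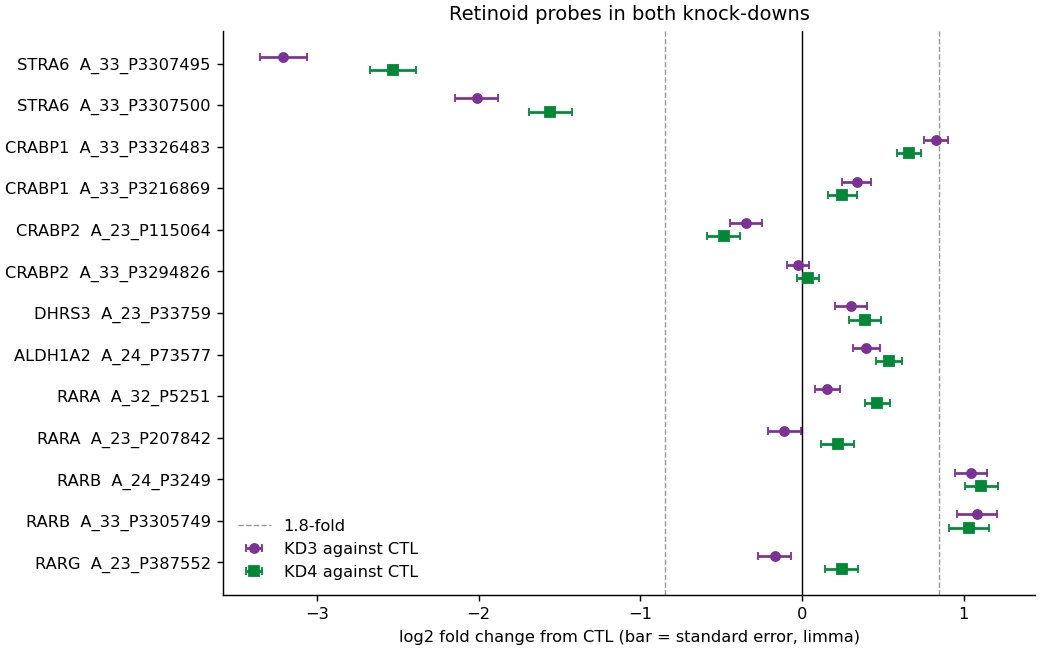
Log2 fold change from CTL of the 13 tested retinoid probes in KD3 (circles) and KD4 (squares), with the standard error from limma as bars and a 1.8-fold difference as dashed lines. The STRA6 probes lie beyond the dashed line to the left and the RARB probes beyond it to the right in both knock-downs, and the first CRABP1 probe lies just inside it in KD3, at 0.83.

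Counted over the 13 probes, 7 had all 6 knock-down arrays above all CTL arrays, against 13% of all tested probes, and 3 had them below, against 13.5%. The 7 belong to CRABP1, RARA, RARB, ALDH1A2 and DHRS3, and the 3 to STRA6 and CRABP2. These shares come from the comparison that chose the genes. Between the knock-downs, 0 of the 13 probes were called by limma, where 0.443% of all tested probes were (0.204% higher and 0.239% lower in KD4, so that 53.8% of these calls were lower, against 27.8% with 75th percentile scaling). The methods' t-test with adjustment called 0 of all probes there, so that it says nothing about the 13. By adjusted p alone, 1 of 13 passed (the first STRA6 probe), against 2.47% of all tested probes, and 5 had an unadjusted p under 0.05, against 19.3%. All KD4 arrays lay above all KD3 arrays for 5 of the 13 probes, those of STRA6, RARA and RARG, against 14.1% of all tested probes, and below them for 1, of CRABP1, against 14.9%.

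**Figure D4:**
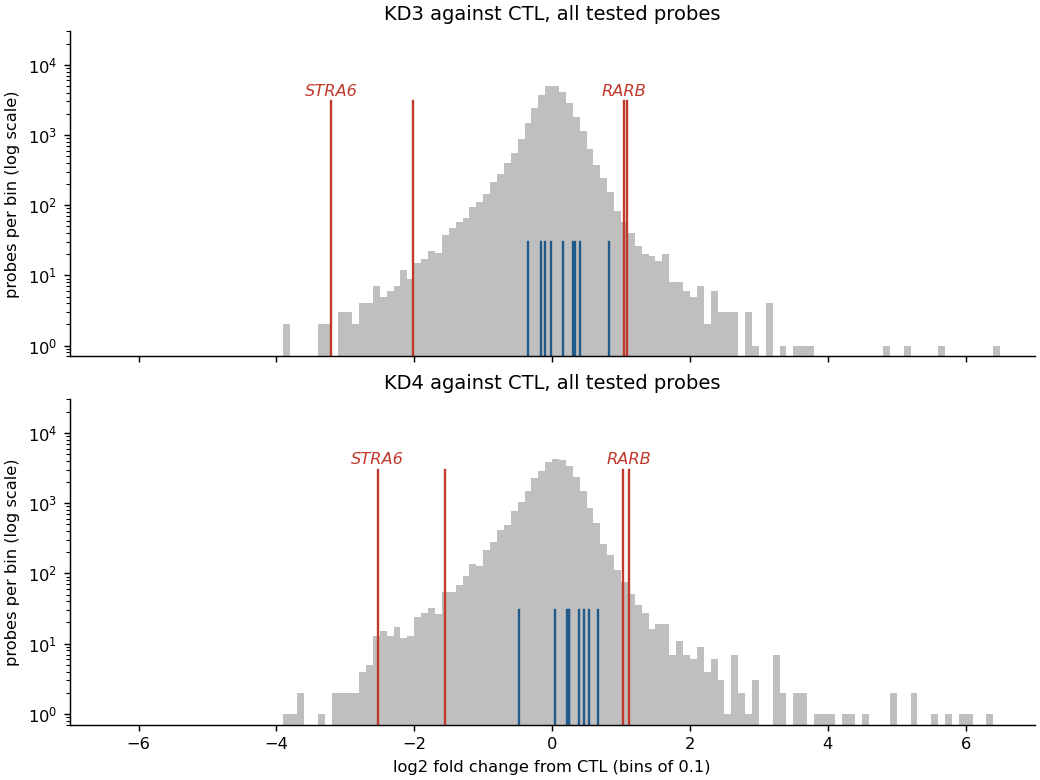
Number of tested probes by log2 fold change from CTL, in bins of 0.1 on a log count axis, for KD3 (top) and KD4 (bottom). Tall red lines mark the STRA6 and RARB probes and short blue lines the other 9 tested retinoid probes. The brighter STRA6 probe, at -3.21 and -2.53, lies in the left tail of the probes, and the RARB probes lie on the right shoulder.

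To see what surrounds these genes in the pathway, 67 other retinoid genes were examined, of which 66 were matched (86 probes) and 51 had a tested probe (67 probes). This list was drawn up with earlier results known, so the p-values below against CTL are not those of an independent test. In KD3, 1 of the 67 probes was called higher and 3 lower, against 1.12% and 2.2% of all tested probes. In KD4, 1 was called higher and 4 lower, against 1.42% and 3.19%. Between KD4 and KD3, limma called 0 of the 67, against 0.443% of all tested probes, and 15 had an unadjusted p under 0.05, against 19.3%.

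Among 11 tested probes of retinol carriers and esterification, RBP7, an intracellular retinol binding protein, was the one called. It read 9.09, 9.06 and 9.15 in CTL, 7.70, 7.60 and 7.72 in KD3, and 7.45, 7.74 and 7.54 in KD4, so that no knock-down array came near CTL. In KD3 it fell by 1.43 on the log2 scale (limma, adjusted p = 2.4e-05) and in KD4 it fell by 1.53 (adjusted p = 1.5e-05). LRAT, which stores retinol as esters and works beside STRA6 in uptake, had log2 fold changes of -0.42 in KD3 (limma, adjusted p = 0.0348) and -0.81 in KD4 (adjusted p = 0.00148), below the fold threshold. It was called in KD4 with CTL replicate 2 left out (-0.91). Under normexp the LRAT values shrank to -0.18 in KD3 and -0.32 in KD4. With the methods' t-test its adjusted p was 0.207 in KD3 and 0.0807 in KD4. RBP4, the plasma carrier that STRA6 binds, had 0.17 and -0.01, and none of the 3 FABP5 probes was called. Of 4 tested probes for cleavage and ester hydrolysis, LPL, lipoprotein lipase, was called, with 9.74, 9.84 and 9.84 in CTL, 8.14, 7.98 and 7.92 in KD3, and 8.39, 8.38 and 8.47 in KD4. LPL had the same order of groups as STRA6 and fell by 1.79 on the log2 scale in KD3 (limma, adjusted p = 5.5e-06) and by 1.39 in KD4 (adjusted p = 1.4e-05).

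Of 17 tested probes of dehydrogenases and reductases, 1 was called in KD3 and 2 in KD4, all lower and all of enzymes that make retinoic acid, as ALDH1A2 does. ALDH1A3 read 9.16, 9.21 and 9.27 in CTL, 8.90, 8.81 and 8.76 in KD3, and 8.27, 8.17 and 8.20 in KD4. The groups stood apart in that order, at -0.39 on the log2 scale in KD3 (limma, adjusted p = 0.00536, under 1.8-fold) and a 2.0-fold lower signal in KD4 (adjusted p = 4e-05). ALDH1A1 probe A_23_P83098 was called in both (-1.44, limma, adjusted p = 0.00258, and -1.80, adjusted p = 0.000659), but it is dim, was not called under normexp (-0.45 and -0.43), and lost its KD4 call with the methods' t-test (adjusted p = 0.104). Its signal was not well above background on every array, and both calls dropped out when only probes that were so were tested. The other ALDH1A1 probe had -0.53 (limma, adjusted p = 0.126) and -0.39 (adjusted p = 0.209). RDH10, which makes the retinaldehyde that DHRS3 reduces, had 0.61 (limma, adjusted p = 0.0037) and 0.58 (adjusted p = 0.00355), again under 1.8-fold, and RDH11 had -0.13 and -0.07.

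CYP26A1, the hydroxylase whose window holds the same kind of repeat as RARB, read 10.69, 10.80 and 10.54 in CTL, 10.63, 10.53 and 10.51 in KD3, and 10.52, 10.49 and 10.59 in KD4. Its groups overlapped, with log2 fold changes of -0.12 (limma, adjusted p = 0.364) and -0.14 (adjusted p = 0.233). RARB has 4 annotated windows and CYP26A1 has 2, and which of them gave the measured transcripts is not known. Whether the element bears on either reading was not tested. None of the 14 tested probes of partner receptors and coregulators was called. RXRA, a partner of RARB, had -0.41 (limma, adjusted p = 0.0029) and -0.38 (adjusted p = 0.00303), RXRB had 0.23 and 0.31, and RXRG -0.03 and -0.21. Of 18 tested probes of genes that retinoic acid is known to induce in other cells, 1 was called: HOXB4, a homeobox gene, rose by 1.08 in KD3 (limma, adjusted p = 2.4e-05) and 0.92 in KD4 (adjusted p = 4.3e-05). By adjusted p alone, 2 of these 18 probes were higher and 1 lower in KD3, where 20% of all tested probes passed in either direction. In KD4, where 28.3% passed, 5 were higher and 2 lower. TGM2, a transglutaminase, was the lower one in KD3, with log2 fold changes of -0.77 in KD3 (limma, adjusted p = 0.000395) and -0.48 in KD4 (adjusted p = 0.00299) for probe A_24_P923251, under 1.8-fold in both. The other TGM2 probe, A_32_P86763, was less steady. Within the slides it had -1.09 and -0.37 in KD3 and -0.75 and -0.19 in KD4. Under normexp it had -0.09 in KD3 and -0.03 in KD4.

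**Figure D5:**
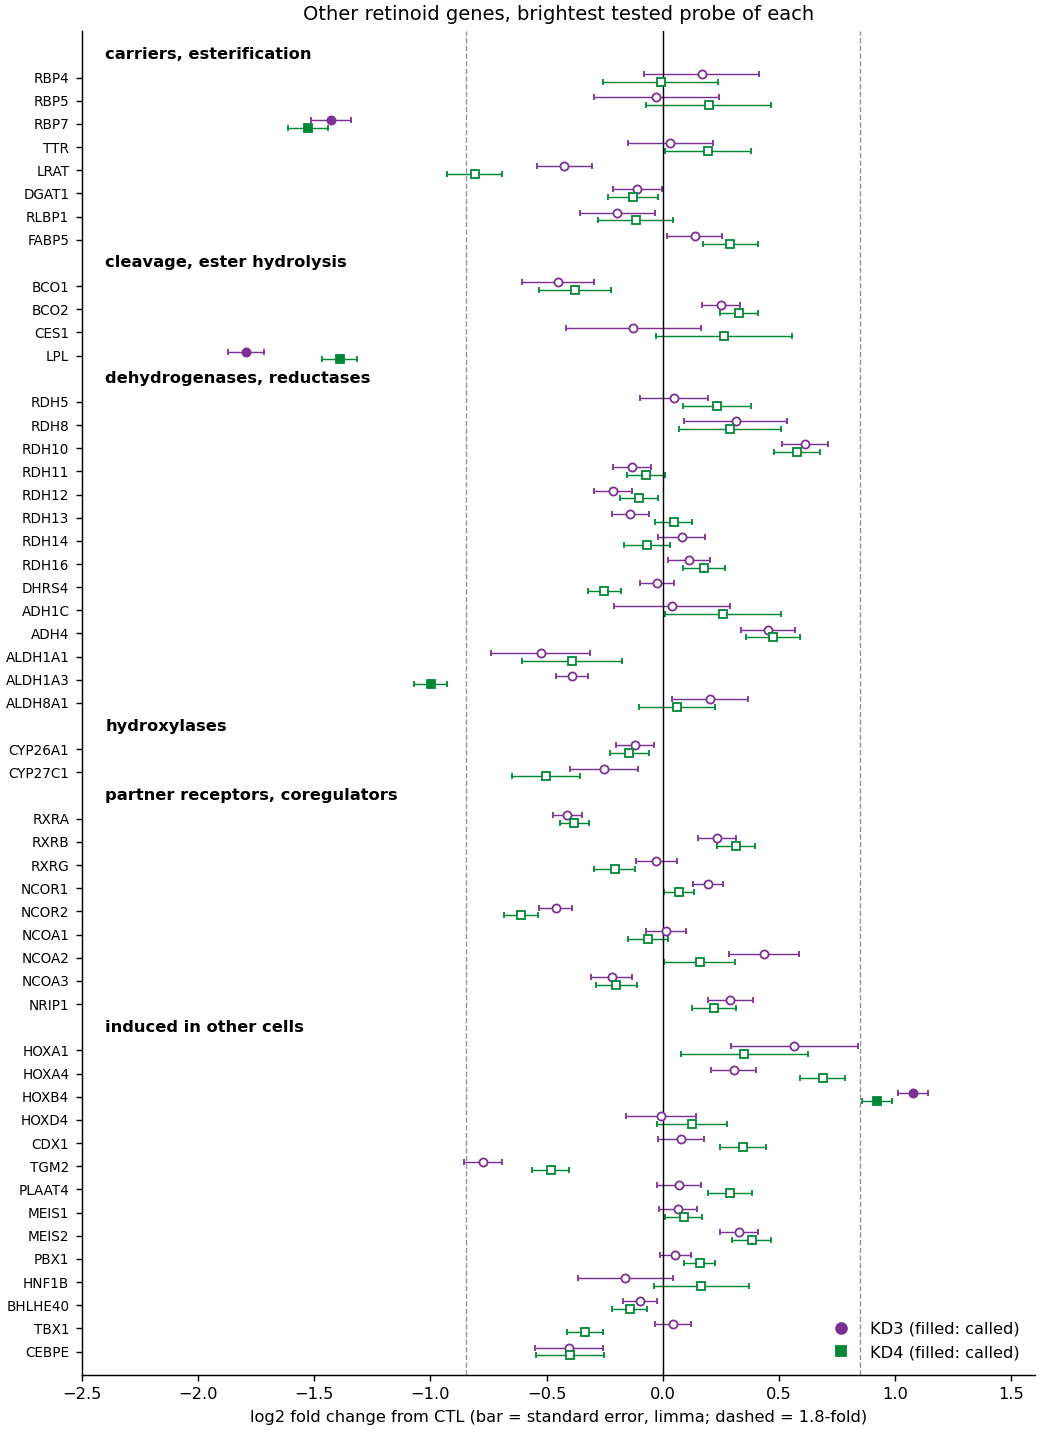
Log2 fold change from CTL of the brightest tested probe of each of 51 other retinoid genes, grouped by step, in KD3 (circles) and KD4 (squares), with standard errors from limma and a 1.8-fold difference as dashed lines. Filled symbols were called. RBP7 and LPL lie to the left and HOXB4 to the right in both knock-downs, and ALDH1A3 passes the dashed line in KD4. ALDH1A1 is shown by its brighter probe, which was not called.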

How the data were processed

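Total RNA from 9 HEK293 populations was hybridized to one-color Agilent arrays. The authors deposited, per array, the green processed signal intensity of each spot (Agilent Feature Extraction 10.10.1.1, background-subtracted) and a table of log2 values normalized in GeneSpring, used here as an alternative. The methods' quintile normalization was read as quantile. The members and the other gene lists were chosen with earlier results of these data known.

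Control spots and outlier spots (260 to 634 of 58717 per array) were left out, quantile normalization of the log2 signals used limma 3.58.1 (R 4.3.3), and spots of a probe were averaged. Of 42405 probes, 21 had no value on some array, and 25422 were named through RefSeq accessions. Probes well above background on all arrays of at least 1 group were tested (32276). A group-means model over all 9 arrays was fitted with lmFit and eBayes, with Benjamini-Hochberg adjustment per comparison, and was tested on simulated data. The number of arrays limits the precision.

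Named were all probes of the 9 genes, other retinoid genes with a call in any comparison or of a member's step, genes with the highest Pearson correlation, SMCHD1 and cell markers. The reporting probe of a gene is its brightest. TBX1 and TGM2 fall outside that rule and were named after their values were seen. DHRS9 was not matched. Alternatives were 75th percentile scaling, the authors' log2 values, normexp from spot and background medians with an offset of 50, testing every probe or only those above background on all arrays, the methods' t-test (adjusted or not), separate fits per comparison, a block for replicate number or for slide, no fold threshold, and leaving out each array.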

Additional observations from a re-analysis of the deposited data

Results flagged for a closer look

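The 4 probes below differed between the knock-downs themselves by the limma test of KD4 against KD3, at an adjusted p under 0.05 but below 1.8-fold. They are 1 of the 13 member probes and 3 of the 67 other retinoid probes, where 2.47% of all tested probes passed. STRA6 probe A_33_P3307495 was 0.68 higher in KD4 on the log2 scale (adjusted p = 0.0495, range over the alternatives 0.0147 to 0.161), and higher on all 3 KD4 arrays than on all KD3 arrays. LPL was 0.40 higher in KD4 (adjusted p = 0.0336, range 0.0201 to 0.245) and passed in 7 of 18 alternatives. ALDH1A3 differed by -0.61 (adjusted p = 0.0058, range 0.00075 to 0.119) and passed in 17 of 18, the exception being the methods' t-test. TBX1 probe A_23_P211345 differed by -0.38 (adjusted p = 0.0444, range 0.0217 to 0.239) and passed in 3 of 18. The other TBX1 probe, A_23_P40527, passed in 0 of 18 (adjusted p range 0.0572 to 0.306). With 1 array left out, the adjusted p exceeded 0.05 in 7 of 9 cases for STRA6 probe A_33_P3307495, 6 of 9 for LPL, 9 of 9 for TBX1 probe A_23_P211345 and 0 of 9 for ALDH1A3.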

How the results depend on the processing

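Of 819 recomputed log2 values of the 13 tested retinoid probes over all comparisons and alternatives, 780 moved by less than the spread between replicates, 39 moved further and 0 turned a called direction. Many of the 780 could not move, so that count is no measure of stability. The t-test, separate fits, probe filters, replicate block and absent fold threshold leave a difference of group means as it was. So does leaving out an array of a group outside the comparison. In all, 4 probes, those of STRA6 and RARB, were called in KD3, in KD4 and in both. Under normexp 2 were called in KD3, 2 in KD4 and 2 in both, all of STRA6. The methods' t-test with adjustment called 1 in KD3 (STRA6 probe A_33_P3307500), 2 in KD4 (that probe and RARB probe A_24_P3249) and 1 in both. Without the fold threshold the counts were 8 in KD3, 9 in KD4, 7 in both and 1 between KD4 and KD3. For the 67 tested probes of the other retinoid genes they were 15, 24, 14 and 3, against 4, 5, 4 and 0 with that threshold. Of all tested probes, 20% passed without it in KD3, 28.3% in KD4 and 2.47% between KD4 and KD3, and the share for both was not counted. Leaving out each array gave 4 to 5 member calls in KD3 and 4 to 4 in KD4, and 4 to 4 and 5 to 6 for the other retinoid genes. The replicate numbers did not pair the arrays: deviations of same-numbered arrays correlated by -0.08 to 0.14, above 0.1 in 3 of 9 pairs, and 5 of 9 arrays correlated best with their own number. With the replicate block, 4 member probes were called in KD3, 4 in KD4 and 0 between them, and 4, 5 and 0 for the other retinoid genes, while SMCHD1 kept log2 fold changes of -0.97 and -1.53, and the adjusted p of STRA6 probe A_33_P3307495 between KD4 and KD3 rose to 0.0988. Of all 143 probes called between KD4 and KD3, 53.8% were lower in KD4, against 27.8% with 75th percentile scaling and 27.0% under normexp, and the cause was not tested. Signal over background limits CYP26B1, which had no usable level, and RARB.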

Other observations

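The 3 named genes most like each member over the 9 arrays, by Pearson correlation among probes well above background on all of them, are given without a test, because the points share the 3 groups. For STRA6 they were PLEKHO1 (0.995), TMBIM1 (0.994) and LPL (0.994), with log2 fold changes in KD3 of -0.49, -0.91 and -1.79. For RARB they were CTSC (0.993), NEFH (0.992) and SPIN1 (0.989), of which NEFH, a neurofilament gene, was 2.07 higher in KD3 and 2.23 higher in KD4. CRABP1 was most like CCNB3, DKFZP586I1420 and LONP2 (0.992 to 0.993), ALDH1A2 most like DOLPP1, PVT1 and AGPAT3 (0.982 to 0.988), and DHRS3 most like COX10, SNRPC and MLPH (0.966 to 0.976). RARA was most like PPP1R18, SPNS1 and PFDN2, and RARG most like PCBP1, EMP3 and MAP2K1, whose log2 fold changes lay between -0.18 and 0.47. For CRABP2 the correlations were lower, with PSORS1C2, KISS1 and FFAR2 at 0.876 to 0.887.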
